A study of Mus musculus with 24 samples.

Results

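The coinhibitory receptors of CD4 cells described here are 7 genes, Ctla4, Pdcd1, Lag3, Havcr2, Btla, Cd160 and Cd5, each taken with every probe that carries its symbol in the deposited table. They are 7 of the 17871 genes on the array and have 8 of its 25697 probes, 2 for Havcr2 and 1 for each other gene. Of the 7, 6 had a probe that reached the detection limit (a detection p-value no higher than 0.02) on 1 or more of the 24 arrays and could be tested. Pdcd1 was not detected on any array.

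Coinhibitory receptors are surface proteins that weaken signalling from the T cell receptor when they meet their ligands. CTLA-4, PD-1 (Pdcd1) and BTLA belong to the CD28 family: CTLA-4 competes with CD28 for CD80 and CD86, PD-1 binds PD-L1 and PD-L2, and BTLA binds HVEM, a ligand it shares with CD160. LAG-3 binds MHC class II, TIM-3 (Havcr2) has galectin-9 among its ligands, and CD5 restrains receptor signalling in thymocytes and mature T cells.

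The cells were CD4 T cells from wild-type (WT) mice and from mice whose T cells lack BAF180, the Pbrm1 product and a subunit of the PBAF chromatin remodelling complex, all 4 to 6 weeks old. Floxed Pbrm1 was deleted by Cre under the CD4 promoter, which is active in thymocytes before the CD4 and CD8 lineages part, so CD8 T cells lose the gene too and a change may date from development. The labels give Balb/c as the strain of both genotypes, whereas the methods describe a mixed B6-129 background; the labels do not say whether WT mice carried Cre. Resting Naïve cells were CD4+CD62L+ cells of spleen and lymph node, 95% pure. Stimulated Naïve cells were kept for 24 h on anti-CD3 (1 µg/ml) and anti-CD28 (2 µg/ml). Resting Th2 cells grew from Naïve cells on the same antibodies with IL-4 (10 ng/ml), anti-IFNγ (10 µg/ml) and, from 24 h, IL-2 (100 U/ml). Stimulated Th2 cells were such cells after 1.5 h of PMA (50 ng/ml) and ionomycin (500 ng/ml). Naïve and Th2 cells were therefore stimulated by different agents for different times, and cell type, agent and time cannot be separated between them.

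Each of the 8 groups had 3 arrays, with replicate letters A, B and C. The mice were 3 pairs, each of 1 WT and 1 BAF180-deficient animal. The labels do not name the mouse behind each array, so it is not known whether arrays with the same letter in different states share a mouse. Detected probes ranged from 8047 on resting Naïve WT array A to 10689 on stimulated Naïve BAF180-deficient array C. Values are log2 normalized intensities, listed in the order A, B, C, and each difference comes from limma. A state difference or interaction was called at adjusted p < 0.05. A genotype difference was called by the thresholds of the 4 criteria in the methods: |Z-ratio| > 1.5, FDR < 0.3, unadjusted p < 0.05 and a mean signal above background. The methods apply these to Z-scores, whereas here the ratio and p come from the limma fit of log2 values. The last criterion was not applied as a separate step, since the background correction used here gives every probe a positive signal.

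The Pbrm1 probe detected on all 24 arrays followed the genotype labels in all 4 states. It read 8.20, 8.72 and 8.69 in resting Naïve WT cells and 7.88, 7.28 and 7.41 in BAF180-deficient cells. In stimulated Naïve cells it read 8.29, 8.76 and 8.67 against 6.36, 7.06 and 7.41. In Th2 cells the values were 9.06, 9.06 and 8.88 against 7.16, 7.23 and 7.02 at rest, and 8.52, 8.14 and 8.21 against 6.56, 6.90 and 7.15 after stimulation. The genotypes did not overlap in any state, and the difference was called in each state (−1.01, −1.63, −1.86 and −1.42 in that order; adjusted p = 0.121, 0.00746, 0.00101 and 0.0141). Where the probe lies relative to the deleted exon was not determined.

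Markers of T cells were present throughout, and markers of state separated some groups and not others. Cd3e, a chain of the T cell receptor complex, and Cd4 were detected on all 24 arrays, at 9.46 to 11.07 and 4.69 to 6.14. Il4 read 6.33 to 7.22 in resting Naïve cells and 13.97 to 14.20 in stimulated Th2 cells of both genotypes. Between these, stimulated Naïve WT arrays (10.27, 9.27 and 9.40) overlapped resting Th2 WT arrays (10.19, 9.74 and 8.35). Of 7 Th2 markers 2 were called higher and 2 lower in resting Th2 than in stimulated Naïve WT cells (22.3% of all probes called). Marker sums add normalized, background-corrected signal on a linear scale, which is not the scale of the deposited intensities. The sum of 6 naive T cell markers averaged 5152 in WT Naïve cells at rest and 497 once these were stimulated. It averaged 3912 and 1336 in resting and stimulated Th2 WT cells. A mean of 605 for the memory markers in resting Th2 WT cells stood beside 334 in resting Naïve WT cells, and 7227 for the Th2 markers beside 527.

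Between states, most of the coinhibitory receptors that could be tested differed, each in its own pattern. In WT cells Lag3 was high in both stimulated states, Havcr2 was high only in stimulated Th2 cells, and Btla was highest in stimulated Naïve cells. Cd160 was highest in resting Naïve cells, Ctla4 varied within groups by as much as between most of them, and Cd5 stayed near the same level throughout. Every difference in bulk RNA between groups may reflect fewer cells of a type or less RNA per cell, and these cannot be told apart.

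Of the 6 testable members, 3 were called between stimulated and resting Naïve WT cells, where 43.6% of all kept probes were called, and 3 between resting Th2 and resting Naïve WT cells (34.4% of all probes). Between stimulated and resting Th2 WT cells 4 of 6 were called (27.3%). In BAF180-deficient cells the counts were 3 (41.6%), 4 (34.7%) and 5 (25.8%). With 6 genes these counts are too small to rank against the array's shares. Across the states, 3 members were also called between resting Th2 and stimulated Naïve WT cells (22.3% of probes), 4 between stimulated Th2 and stimulated Naïve WT cells (20.1%) and 3 between stimulated Th2 and resting Naïve WT cells (48.5%). Between WT states the share of all kept probes that did not overlap ran from 34.9% to 52.8%. The lowest was stimulated Th2 against stimulated Naïve cells and the highest stimulated Th2 against resting Naïve cells.

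**Figure D1:**
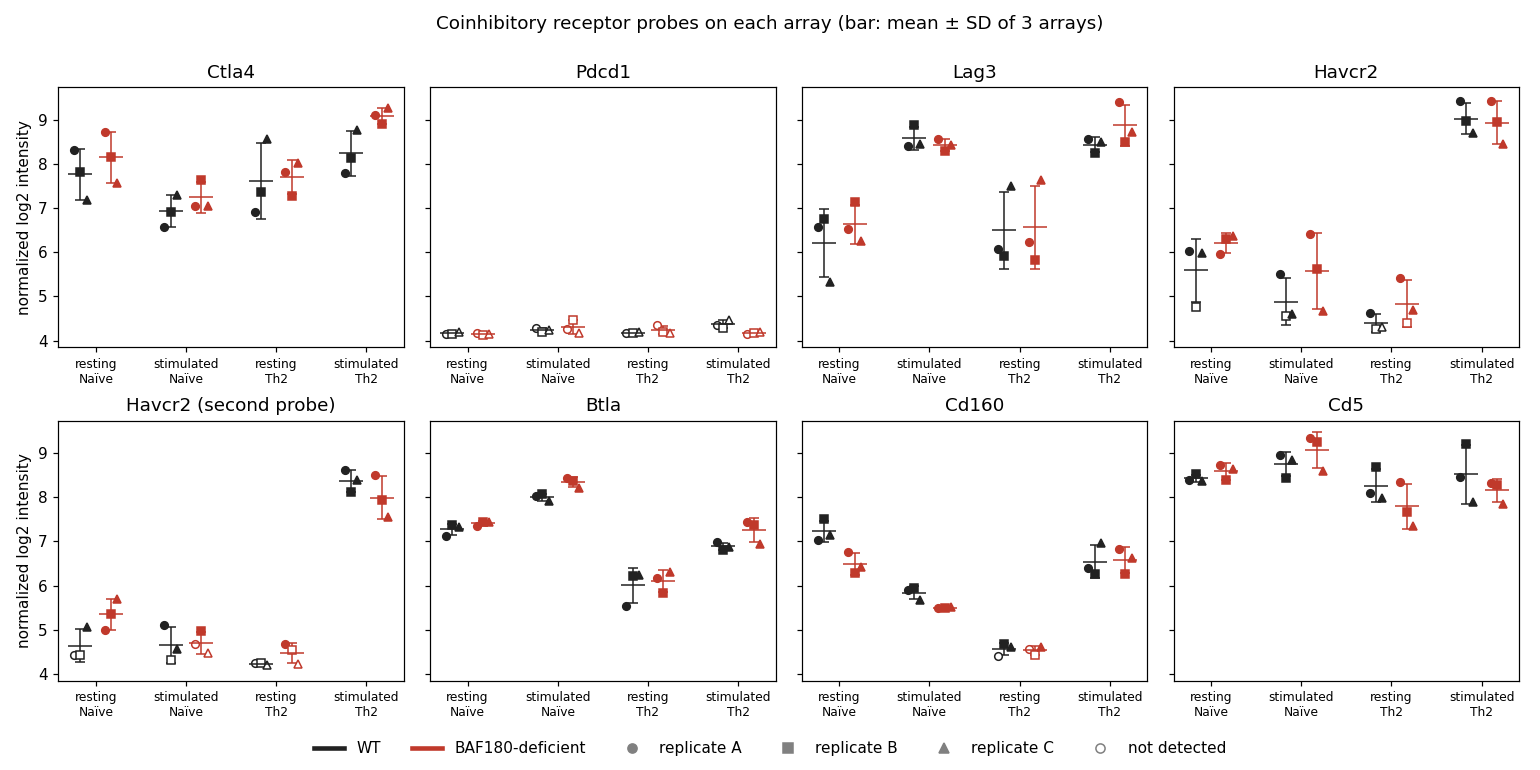
Log2 intensity of each coinhibitory receptor on each of the 24 arrays, by state and genotype. Open symbols are arrays on which the probe was not detected.

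Ctla4, whose product takes CD80 and CD86 away from CD28, was detected on every array. In WT cells resting Naïve arrays read 8.31, 7.81 and 7.17, stimulated Naïve arrays 6.57, 6.90 and 7.30, resting Th2 arrays 6.90, 7.36 and 8.56, and stimulated Th2 arrays 7.79, 8.13 and 8.77. In BAF180-deficient cells it read 8.71, 8.16 and 7.57, then 7.04, 7.64 and 7.04, then 7.81, 7.28 and 8.02, and 9.11, 8.89 and 9.26 in the same order of states. The WT groups overlapped, except that every stimulated Th2 array lay above every stimulated Naïve array. In BAF180-deficient cells the stimulated Th2 arrays lay above all others. The WT means fell in the order stimulated Th2 (8.23 ± 0.50, SD, n = 3), resting Naïve (7.76 ± 0.57), resting Th2 (7.61 ± 0.86) and stimulated Naïve (6.93 ± 0.36), and no neighbours in this order differed beyond the spread.

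Ctla4 was higher in stimulated Th2 than in stimulated Naïve WT cells by 1.31 (adjusted p = 0.0166; 0.0116 to 0.0447 over its alternatives). That call was lost without stimulated Naïve WT array A (1.13, adjusted p = 0.0819) or stimulated Th2 WT array C (1.04, 0.0937). With stimulation of BAF180-deficient Th2 cells Ctla4 rose by 1.39 (adjusted p = 0.00896; 0.00374 to 0.0252 over its alternatives), a call that was lost without resting Th2 BAF180-deficient array B (1.18, 0.0543). In WT Th2 cells the difference was 0.62 and was not called (adjusted p = 0.262; 0.223 to 0.445 over its alternatives). The interaction of genotype and stimulation was 0.76 and was not called (1.00). Without resting Th2 WT array C, the highest Ctla4 value of its group at 8.56, the WT difference was called (0.0297).

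With stimulation of Naïve cells Ctla4 was lower by 0.84 in WT cells (adjusted p = 0.0800; 0.0647 to 0.210 over its alternatives) and by 0.90 in BAF180-deficient cells (0.0604; 0.0475 to 0.125), and neither difference was called. Without resting Naïve WT array C the WT difference was −1.13 and was called (0.0288). The BAF180-deficient difference was called without resting Naïve BAF180-deficient array C (−1.19, 0.0244) or stimulated Naïve BAF180-deficient array B (−1.11, 0.0467).

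Regulatory T cells carry much Ctla4, so their markers were read beside it. Summed over 9 markers, regulatory T cell signal was 1739, 1592 and 1985 in resting Naïve WT cells. It was 2642, 2008 and 2197 in resting Naïve BAF180-deficient cells, without overlap. Of all single probes 7.99% did not overlap between genotypes there. Foxp3, the regulatory lineage factor, averaged 8.83 in resting Naïve, 7.47 in stimulated Naïve, 5.89 in resting Th2 and 5.52 in stimulated Th2 WT cells, and 9.27, 7.84, 6.89 and 5.76 in BAF180-deficient cells. None of the 9 was called by genotype in any state. The sum of the 9 markers averaged 1772, 1035, 1292 and 1707 in the WT states in that order, so it was higher in stimulated than in resting Th2 cells, as the Ctla4 mean was, while Foxp3 was not. Capg, an actin-capping gene also found outside regulatory cells, led the sum on all 12 Th2 arrays. With stimulation of WT Th2 cells 6 of the 9 markers had a higher mean, with a median difference of 0.26 beside −0.00 for all probes. Of the 9, 1 was called higher and 1 lower there. In BAF180-deficient Th2 cells, where Ctla4 rose, 4 of 9 had a higher mean (median −0.05), with 1 called higher and 2 lower. Of all probes 27.3% and 25.8% were called in these comparisons. The part of regulatory T cells in the Ctla4 values was not tested.

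Btla, the HVEM receptor of the CD28 family, had the smallest standard error of the members. WT cells gave 7.12, 7.36 and 7.33 in resting Naïve, 8.03, 8.06 and 7.90 in stimulated Naïve, 5.54, 6.23 and 6.25 in resting Th2 and 6.97, 6.81 and 6.87 in stimulated Th2 cells. BAF180-deficient cells gave 7.34, 7.43 and 7.44, then 8.44, 8.37 and 8.20, then 6.17, 5.83 and 6.30, and 7.44, 7.37 and 6.95. In WT cells no 2 states overlapped: stimulated Naïve cells were highest, then resting Naïve (7.27 ± 0.13, SD, n = 3), stimulated Th2 (6.89 ± 0.08) and resting Th2 cells (6.01 ± 0.40). Only resting Naïve and stimulated Th2 cells, neighbours in this order, did not differ by the test (−0.39, adjusted p = 0.0664), and it was called with the normexp background (−0.28, 0.0343) and with no background correction (−0.31, 0.0417), in a range of 0.0343 to 0.724 over its alternatives.

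Stimulation raised Btla in both cell types and both genotypes. In Naïve cells the rise was 0.72 in WT (adjusted p = 0.00152) and 0.93 in BAF180-deficient cells (0.000137), and in Th2 cells 0.88 (0.000439) and 1.15 (3.04e-05). At rest Btla was lower in Th2 than in Naïve cells by 1.27 in WT (6.99e-06) and 1.30 in BAF180-deficient cells (4.84e-06). Against stimulated Naïve WT cells it was also lower in resting Th2 (−1.99, 5.14e-08) and stimulated Th2 cells (−1.11, 7.04e-05). None of these calls was lost when any 1 array was left out. With the 4 criteria in place of adjusted p < 0.05, the Btla calls with stimulation of Naïve cells in both genotypes and of Th2 cells in WT were lost.

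The other CD28 family member, Pdcd1, which encodes PD-1, could not be tested. Its probe gave deposited intensities of 30.9 to 50.7, before normalization. Its lowest detection p-values were 0.050 on stimulated Naïve BAF180-deficient array B and 0.056 on stimulated Th2 WT array C. A level under the array's background and a probe that does not report the transcript cannot be told apart.

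Lag3, the MHC class II receptor, followed stimulation. In WT cells it read 6.56, 6.75 and 5.33 in resting Naïve, 8.40, 8.87 and 8.46 in stimulated Naïve, 6.08, 5.92 and 7.50 in resting Th2 and 8.55, 8.24 and 8.50 in stimulated Th2 cells. BAF180-deficient cells read 6.52, 7.13 and 6.26, then 8.57, 8.29 and 8.42, then 6.24, 5.82 and 7.63, and 9.39, 8.50 and 8.72. All 12 stimulated arrays lay above all 12 resting arrays. The WT order was stimulated Naïve (8.57 ± 0.25, SD, n = 3), stimulated Th2 (8.43 ± 0.17), resting Th2 (6.50 ± 0.87) and resting Naïve cells (6.22 ± 0.77); the 2 stimulated states did not differ (adjusted p = 0.900), nor did the 2 resting states (0.667).

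Lag3 rose with stimulation of Naïve cells by 2.36 in WT (adjusted p = 0.000155) and 1.79 in BAF180-deficient cells (0.00213). In Th2 cells it rose by 1.93 (0.00189) and 2.31 (0.000419). It was lower in resting Th2 than in stimulated Naïve WT cells (−2.07, 0.00133) and higher in stimulated Th2 than in resting Naïve WT cells by 2.21 (0.00024). Lag3 had the largest standard error of any member (0.43), with resting Naïve WT array C lowest at 5.33 and resting Th2 array C highest in both genotypes, yet every Lag3 call held when any 1 array was left out.

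Havcr2, which encodes TIM-3, was high in a single state. Its stronger probe read 9.41, 8.96 and 8.70 in stimulated Th2 WT cells and 9.42, 8.93 and 8.44 in stimulated Th2 BAF180-deficient cells. Elsewhere in WT cells it read 6.02, 4.77 and 5.99 in resting Naïve, 5.50, 4.55 and 4.61 in stimulated Naïve and 4.64, 4.26 and 4.30 in resting Th2 cells, with array B of each state and resting Th2 array C not detected. BAF180-deficient cells read 5.95, 6.30 and 6.37, then 6.40, 5.62 and 4.68, then 5.42, 4.41 and 4.69, with resting Th2 array B not detected. The lowest stimulated Th2 array, at 8.44, lay above the highest array of any other state, at 6.40. The WT order below stimulated Th2 (9.02 ± 0.36, SD, n = 3) was resting Naïve (5.59 ± 0.71), stimulated Naïve (4.89 ± 0.53) and resting Th2 cells (4.40 ± 0.20), in which neighbours did not differ (adjusted p = 0.159 and 0.472).

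With stimulation of Th2 cells Havcr2 rose by 4.62 in WT (adjusted p = 2.33e-08) and by 4.09 in BAF180-deficient cells (1.68e-07), from resting levels detected on 1 of 3 and 2 of 3 arrays. Stimulated Th2 WT cells also lay 4.14 above stimulated Naïve (2.03e-07) and 3.43 above resting Naïve WT cells (3.86e-07). The second probe, on the same transcript, read 8.60, 8.12 and 8.38 in stimulated Th2 WT cells and was not detected on any resting Th2 WT array, a rise of at least 13.6-fold (1.25e-10). In BAF180-deficient cells the second probe rose by 3.51 (1.92e-09), from a resting level detected on 1 of 3 arrays.

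At rest Havcr2 was lower in Th2 than in Naïve cells, by 1.19 in WT (adjusted p = 0.0234; 0.00491 to 0.0704 over its alternatives) and by 1.37 in BAF180-deficient cells (0.0102; 0.00167 to 0.0416). The WT call was lost without resting Naïve WT array A (−0.98, 0.108) or C (0.0860), or without resting Th2 WT array B (−1.12, 0.0666) or C (−1.14, 0.0646). It was also lost with Z-score normalization (−0.62, 0.0686), the normexp background (−0.56, 0.0704), no filter (0.0563) and the 4 criteria. The BAF180-deficient call was lost without resting Th2 array B (−1.16, 0.0527). The second probe was called only in BAF180-deficient cells (−0.87, 0.00963; 0.00813 to 0.0576), with an interaction of −0.45 that was not called (1.00), and lost its call without resting Naïve array C (−0.69, 0.0547) or resting Th2 array C (−0.74, 0.0526) of that genotype, with normexp (−0.38, 0.0576) and with the 4 criteria. Most resting values were near the detection limit.

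With stimulation of Naïve cells the stronger Havcr2 probe was not called in either genotype. It was called in WT cells without resting Naïve array B (−1.12, adjusted p = 0.0318; 0.0686 to 0.366 over its alternatives) and in BAF180-deficient cells without stimulated Naïve array A (−1.06). The second probe was called in BAF180-deficient cells only (−0.64, 0.0423; 0.0370 to 0.157), a call lost in 6 of 10 alternatives, and its interaction was −0.66 and not called (1.00). Its call was also lost without resting Naïve array B (0.0875) or C (0.185), or stimulated Naïve array A (0.0812) or C (0.159), of that genotype.

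Myeloid cells also express Havcr2, and the sum of 5 myeloid markers was 1728, 2307 and 4920 in resting Naïve WT cells, 1866, 2478 and 2223 in resting Naïve BAF180-deficient cells and at most 153 on any array of another state. Lyz2, a lysozyme gene of myeloid cells, was detected only in resting Naïve cells (8.95, 8.85 and 11.48 in WT; 9.38, 9.43 and 9.93 in BAF180-deficient). The part of myeloid cells in the resting Naïve Havcr2 values was not tested.

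Cd160, the second HVEM receptor among the members, was the only member highest in resting Naïve WT cells. WT cells gave 7.04, 7.50 and 7.14 in resting Naïve, 5.90, 5.95 and 5.67 in stimulated Naïve, 4.42, 4.69 and 4.60 in resting Th2 and 6.39, 6.26 and 6.96 in stimulated Th2 cells, with resting Th2 array A not detected. BAF180-deficient cells gave 6.76, 6.28 and 6.42, then 5.50, 5.50 and 5.51, then 4.56, 4.43 and 4.62, and 6.84, 6.26 and 6.62, with resting Th2 arrays A and B not detected. In WT cells no 2 states overlapped, and all neighbours in the order resting Naïve (7.23 ± 0.24, SD, n = 3), stimulated Th2 (6.54 ± 0.37), stimulated Naïve (5.84 ± 0.15) and resting Th2 (4.57 ± 0.14) differed by the test. In BAF180-deficient cells resting Naïve and stimulated Th2 arrays overlapped.

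Stimulation acted on Cd160 in opposite directions in the 2 cell types. In Naïve cells it fell by 1.39 in WT (adjusted p = 2.73e-06) and 0.99 in BAF180-deficient cells (0.00015), and in Th2 cells it rose by 1.97 (6.29e-08) and 2.04 (5.44e-08). At rest it was lower in Th2 than in Naïve cells (−2.66, 4.89e-10 in WT; −1.95, 4.97e-08 in BAF180-deficient cells), with the resting Th2 level at the detection limit. Resting Th2 lay below stimulated Naïve WT cells by 1.27 (2.56e-05) and stimulated Th2 below resting Naïve WT cells by 0.69 (0.00326; 0.00196 to 0.155 over its alternatives), a call that Z-score normalization did not keep (−0.30, 0.155). Stimulated Th2 lay above stimulated Naïve WT cells by 0.70 (0.00819; 0.00716 to 0.0514 over its alternatives), a call lost without stimulated Th2 WT array C (0.48, 0.0668). With the 4 criteria the Cd160 calls with stimulation of Naïve cells in both genotypes were lost, as were those of stimulated Th2 against either Naïve state in WT.

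Cd5, a brake on receptor signalling set by signal strength, was detected on every array and differed least between the WT states. WT cells gave 8.40, 8.51 and 8.36 in resting Naïve, 8.96, 8.43 and 8.85 in stimulated Naïve, 8.10, 8.68 and 7.98 in resting Th2 and 8.45, 9.20 and 7.88 in stimulated Th2 cells. BAF180-deficient cells gave 8.74, 8.38 and 8.62, then 9.33, 9.24 and 8.59, then 8.34, 7.67 and 7.34, and 8.33, 8.27 and 7.85. All WT states overlapped, with means from 8.75 ± 0.28 in stimulated Naïve to 8.26 ± 0.38 in resting Th2 cells (SD, n = 3), and none differed by the test.

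In BAF180-deficient cells Cd5 was lower in resting Th2 than in resting Naïve cells by 0.79 (adjusted p = 0.0398; 0.0175 to 0.0912 over its alternatives). That call was lost without resting Naïve BAF180-deficient array A (−0.71, 0.116), B (−0.89, 0.0506) or C (−0.77, 0.0838), and without resting Th2 BAF180-deficient array B (−0.73, 0.105) or C (−0.57, 0.196). It was also lost with Z-score normalization (−0.54, 0.0912), the normexp background (−0.66, 0.0504), no filter (0.0797), only the arrays of the groups compared (0.0552) and the 4 criteria. In WT cells the same difference was not called, and the interaction was −0.62 and not called (1.00).

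**Figure D2:**
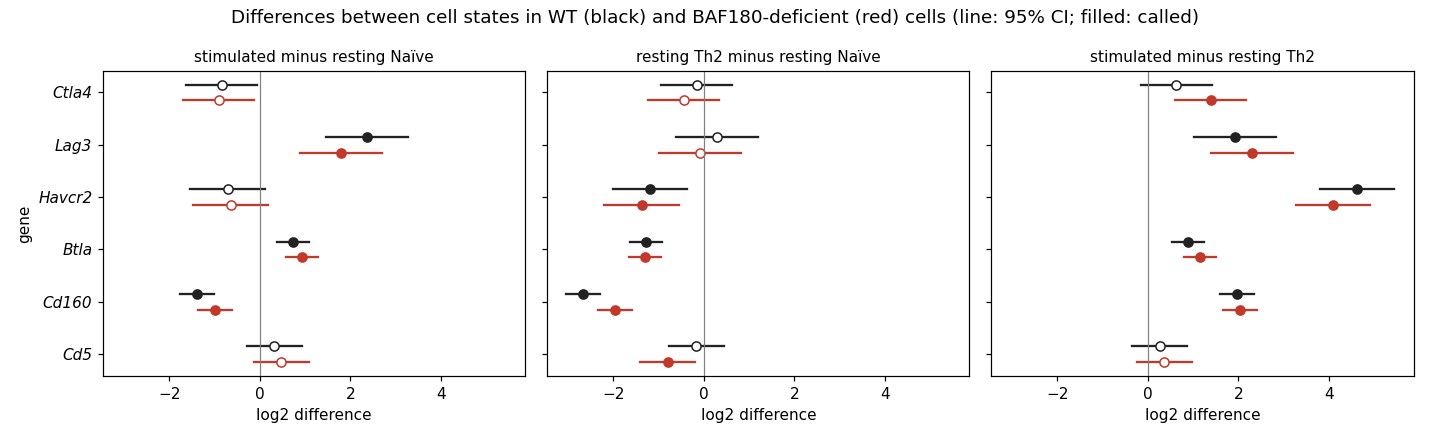
Log2 differences between states for the 6 testable coinhibitory receptors in each genotype, with 95% confidence intervals. Filled symbols passed adjusted p < 0.05.

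Loss of BAF180 was accompanied by few differences in these receptors. Cd160 was lower in resting Naïve BAF180-deficient cells, and no other member was called in any state. Btla was higher in the BAF180-deficient array in 11 of the 12 pairs of arrays that share a state and a letter, Ctla4 and Havcr2 in 9 (the second Havcr2 probe in 7), Lag3 in 8, Cd5 in 5 and Cd160 in 3. The study had 3 pairs of mice, so these 12 pairs of arrays may not be independent and the counts only describe them. With standard errors from 0.17 for Btla to 0.43 for Lag3, a difference in Lag3, Havcr2 or Ctla4 would have to be much larger than in Btla or Cd160 to be called.

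Of the 6 testable members, 1 was called between genotypes in resting Naïve cells, where 0.681% of all kept probes (97) were called. In stimulated Naïve cells 0 were called by limma and the 4 criteria, with 0.112% of probes called (16) and 0 members at unadjusted p < 0.05. Resting Th2 cells gave 0 (0.0842%, 12 probes), again with 0 at unadjusted p < 0.05. Stimulated Th2 cells gave 0 (0.0913%, 13 probes), with 2 at unadjusted p < 0.05, Ctla4 and Btla. These probe counts depend on single arrays: with 1 left out they ran from 84 to 616 (616 without resting Naïve WT array C), 3 to 15, 2 to 37 and 5 to 36 in these states, and over the other alternatives from 1 to 122, 0 to 23, 1 to 23 and 0 to 18. With shares of all probes this low, 0 of 6 in 3 states matches the array as a whole, and 1 of 6 in resting Naïve cells is a single probe.

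Cd160 read 7.04, 7.50 and 7.14 in resting Naïve WT cells and 6.76, 6.28 and 6.42 in resting Naïve BAF180-deficient cells. The 3 BAF180-deficient arrays lay below the 3 WT arrays without overlap (7.99% of all probes did not overlap there). They lay below their partners in 3 of 3 pairs. The difference was −0.74 (95% confidence interval −1.12 to −0.36, 1.67-fold) with Z-ratio −3.12. Its adjusted p = 0.161 passed the FDR limit of 0.3 and not 0.05, and over its alternatives adjusted p ran from 0.128 to 1.00. The call was lost with the Z-score normalization of the methods (−0.57, adjusted p = 0.659). It was also lost without resting Naïve WT array B, the highest at 7.50 (−0.60, adjusted p = 0.347), or without BAF180-deficient array B, the lowest at 6.28 (−0.64, 0.419). In stimulated Naïve cells Cd160 was again lower in all 3 BAF180-deficient arrays (−0.34) and not called. In Th2 cells the genotypes overlapped after stimulation. Resting Th2 cells could not show a lower Cd160, since the probe was there at the detection limit in both genotypes (detected on 2 of 3 WT and 1 of 3 BAF180-deficient arrays). The interaction of genotype with resting Th2 against resting Naïve cells, 0.71 and not called (adjusted p = 1.00), therefore repeats the resting Naïve difference.

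Cd160 is also a receptor of NK cells and CD8 T cells. NK cell markers summed to 433, 678 and 627 in resting Naïve WT cells and 700, 620 and 667 in resting Naïve BAF180-deficient cells, which overlapped. Between states the mean of this sum went in the same directions as Cd160: 579 at rest and 188 after stimulation in Naïve WT cells, 79.0 and 277 in Th2 WT cells, and 662, 341, 100 and 424 in BAF180-deficient cells in that order. Among the 5 NK markers Nkg7, a granule gene, was the strongest on every array and carried the sum. With stimulation of Th2 cells 1 of the 5 was called higher in each genotype. The median difference was −0.09 in WT and 0.01 in BAF180-deficient cells. These medians cannot show whether the list followed Nkg7, because most of its genes were rarely detected. Over all arrays Klrb1c and Klrk1 were each detected on 1 and Eomes on 2. Of 2 CD8 T cell markers Cd8a was not detected on any array, so only Cd8b1 could be read. On the linear scale of the sums, Cd8b1 averaged 372 in resting Naïve WT and 339 in resting Naïve BAF180-deficient cells. In the same order of genotypes it averaged 210 and 115 in stimulated Naïve, 242 and 132 in resting Th2, and 220 and 143 in stimulated Th2 cells. Array C raised the BAF180-deficient Th2 means, with 72.1, 79.5 and 246 before and 85.0, 71.0 and 275 after stimulation. Cd8b1 was not called by genotype in any state. It was lower in the BAF180-deficient array of every pair of arrays that share a state and a letter, and these pairs may share mice between states. In stimulated Naïve cells Cd8b1 read 197, 163 and 269 in WT and 79.2, 128 and 139 in BAF180-deficient cells, without overlap. Of all probes 6.46% did not overlap between genotypes there. The part of these cells in the Cd160 values was not tested.

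Ctla4 was higher in stimulated Th2 BAF180-deficient cells (9.11, 8.89 and 9.26) than in stimulated Th2 WT cells (7.79, 8.13 and 8.77), without overlap and in 3 of 3 pairs. Of all probes 7.31% did not overlap between genotypes there. The Ctla4 difference of 0.85 had a 95% confidence interval of 0.07 to 1.64 and was not called (adjusted p = 1.00). The paper, which tested Z-scores of these arrays, names Ctla4 among the genes that BAF180 appeared to repress in Th2 cells. The direction here was the same, and the limma fit did not call it. In resting Naïve cells Ctla4 was higher in the BAF180-deficient array of each of the 3 pairs, by 0.40, 0.35 and 0.40, while the arrays of the genotypes overlapped (8.31, 7.81 and 7.17 against 8.71, 8.16 and 7.57). That difference of 0.38 was not called (adjusted p = 0.994), nor was it with letter as a block. The block fits the same letter effect in every group, so it does not test the pairs within a state. The regulatory T cell sum was higher in the same cells.

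In stimulated Th2 cells Btla was higher by 0.36 and also not called, with overlap between 6.97, 6.81 and 6.87 in WT and 7.44, 7.37 and 6.95 in BAF180-deficient cells. In stimulated Naïve cells the Btla arrays of the genotypes did not overlap (8.03, 8.06 and 7.90 against 8.44, 8.37 and 8.20), with a difference of 0.34 that was not called. Of all probes 6.46% did not overlap between genotypes there.

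Between genotypes Havcr2 differed by 0.62 in Naïve cells at rest and by 0.68 after their stimulation, with overlap between the genotypes in both, and was not called. In resting Naïve cells the second Havcr2 probe was detected on 1 of 3 WT arrays (4.42, 4.43 and 5.07) and on 3 of 3 BAF180-deficient arrays (4.98, 5.35 and 5.70). Its difference was 0.71 (adjusted p = 0.541; 0.417 to 1.00 over its alternatives), not called except without resting Naïve WT array C (0.92, adjusted p = 0.133). In stimulated Naïve cells the second probe differed by 0.04, with the BAF180-deficient array higher in 1 of 3 pairs, so it did not share the 0.68 of the stronger probe. After stimulation of Th2 cells, where Havcr2 was highest, the genotypes overlapped for the stronger probe; the second probe was lower in the BAF180-deficient array of all 3 pairs (−0.38) and was not called. Lag3 and Cd5 were not called by genotype in any state. In resting Th2 cells the member differences ran from −0.47 for Cd5 to 0.44 for Havcr2.

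No member had a response to stimulation, or a difference between Naïve and Th2 cells, that was called as differing by genotype. For the interaction with stimulation of Naïve cells limma called 0 of 6 members (0.00702% of all probes), with 0 at unadjusted p < 0.05. For resting Th2 against resting Naïve cells it called 0 (0.00702%), with 1 at unadjusted p < 0.05, which was Cd160. For stimulation of Th2 cells it called 0 (0%), with 0 at unadjusted p < 0.05. Standard errors of these interactions ran from 0.24 for Btla to 0.61 for Lag3, which limits what they can detect.

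**Figure D3:**
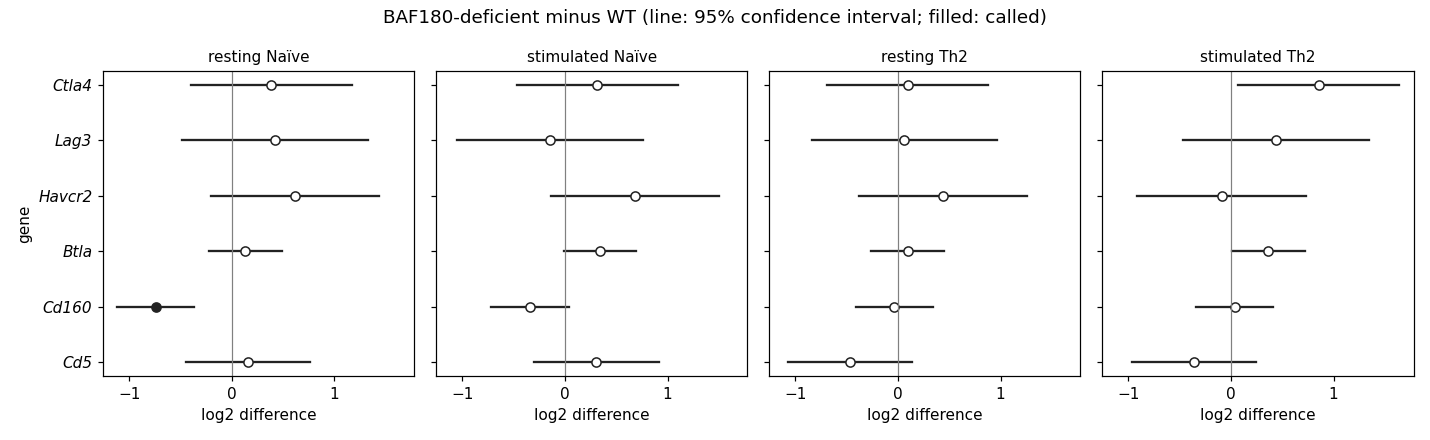
Log2 difference between BAF180-deficient and WT cells in each state for the 6 testable coinhibitory receptors, with 95% confidence intervals. The filled symbol, Cd160 in resting Naïve cells, met the 4 criteria.

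Of the 15 pairs of members 13 correlated positively over the 24 arrays. The highest correlations were 0.650 for Btla with Cd5 (0.19 within groups), 0.614 for Ctla4 with Havcr2 (−0.23) and 0.553 for Havcr2 with Cd160 (−0.26). Within groups the highest was 0.60, for Ctla4 with Lag3 (0.244 over all arrays). Arrays of a group share a state, so these and the following correlations describe patterns and carry no p-value.

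Among 8195 genes, those most like Lag3 were Psme3, a proteasome activator subunit (r = 0.954; 0.75 within groups), Tbx21, which encodes the factor T-bet (0.926; 0.60), and the sulfotransferase gene Chst2 (0.924; 0.50). Most like Havcr2 were the myosin gene Myo10 (0.973; 0.62), the repressor gene Zeb2 (0.958; 0.25) and Tnfsf14 (0.943; 0.42). Tnfsf14 encodes LIGHT, a further partner of HVEM, and read 9.86, 9.03 and 9.52 in stimulated Th2 WT cells, 9.36, 9.59 and 9.28 in stimulated Th2 BAF180-deficient cells and 4.75 to 5.93 on all other arrays. It was thus high in the same single state as Havcr2.

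Most like Cd160 were the phosphatase gene Dusp2 (0.940; −0.18 within groups), the mRNA decay factor gene Zfp36l1 (0.930; −0.03) and Nfkbid, which encodes an NF-κB regulator (0.925; −0.05). Like Cd160, these 3 had lower values in stimulated than in resting Naïve cells and higher values in stimulated than in resting Th2 cells, while within groups they did not vary with it. Most like Btla were the MHC class I assembly gene Tapbpl (0.889; 0.37), the mitochondrial ribosome gene Mrpl38 (0.879; 0.18) and the protease gene Ide (0.874; 0.12). For Ctla4 they were Fam107b, of little known role in T cells (0.800; 0.41), the cell cycle regulator Rgcc (0.795; 0.47) and the kinase gene Ptk2b (0.790; 0.71). For Cd5 they were the ribosome biogenesis gene Lsg1 (0.797; 0.84), the histone acetyltransferase gene Kat8 (0.771; 0.83) and the mitochondrial ribosome gene Mrps34 (0.764; 0.67), and for Lsg1 and Kat8 the correlation within groups was no lower than over all arrays.

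As over the whole array, ligands of these receptors were called more often between states than between genotypes. Of 8 tested ligand genes, 1 was higher and 1 lower in stimulated than in resting Naïve WT cells (median difference −0.18 beside 0.01 for all probes; 43.6% of all probes were called there), 1 higher and 2 lower in resting Th2 than in resting Naïve WT cells (34.4% of all probes), and 3 higher and 2 lower in stimulated than in resting Th2 WT cells (0.23 beside −0.00; 27.3%). Stimulated Th2 WT cells had more Cd274 (PD-L1) by 3.06, Pdcd1lg2 (PD-L2) by 3.02 and Lgals3 (galectin-3, a LAG-3 ligand) by 1.29, and less Lgals9 (galectin-9, a TIM-3 ligand) by 0.97. In BAF180-deficient cells the counts were 1 higher and 2 lower (41.6% of all probes), 1 and 3 (34.7%), and 4 and 2 (25.8%). By genotype the only called ligand was Pdcd1lg2, lower by 0.92 in stimulated Th2 BAF180-deficient cells (adjusted p = 0.229), where 0.0913% of all probes were called.

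Of 18 tested genes that act under inhibitory receptors, 2 were higher and 6 lower in stimulated than in resting Naïve WT cells (median −0.14 beside 0.01 for all probes), where 43.6% of all probes were called, and 3 higher and 7 lower in stimulated than in resting Th2 WT cells (−0.20 beside −0.00), where 27.3% were called. In resting Th2 against resting Naïve WT cells 4 were higher and 2 lower (34.4% of all probes called). The largest in stimulated Th2 WT cells were the adaptor gene Dok2 (−1.52), the phosphatase gene Ptpn22 (1.46), the adaptor gene Sh2d1a (−1.39) and the kinase gene Csk, which holds Lck inactive (−1.27). BAF180-deficient cells gave 1 and 6, 3 and 6, and 3 and 3 in the same order, beside 41.6%, 25.8% and 34.7% of all probes. None was called by genotype in any state.

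Of 17 transcription factor genes tied to coinhibitory receptor expression, 5 were higher and 3 lower in stimulated than in resting Naïve WT cells (median −0.13 beside 0.01 for all probes), where 43.6% of all probes were called. In stimulated against resting Th2 WT cells 8 were higher and 1 lower (0.56 beside −0.00; 27.3% of all probes called), and in resting Th2 against resting Naïve WT cells 3 were higher and 6 lower (−0.16 beside 0.03; 34.4%). Egr2, an early response factor, was higher by 5.21 in stimulated than in resting Th2 WT cells, Tbx21 by 3.13 and Irf4 by 2.17, while Nr4a3, an orphan nuclear receptor gene, was also called and was not detected on any resting Th2 WT array. In stimulated Naïve WT cells the largest were Irf4 (3.12), Tbx21 (2.42), Egr2 (2.23) and Batf (1.79). BAF180-deficient cells gave 4 higher and 6 lower (median −0.24), 8 and 1 (0.17) and 3 and 7 (−0.16) in the same order, beside 41.6%, 25.8% and 34.7% of all probes called. None was called by genotype in any state.

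Of 8 other inhibitory receptor genes, 1 was higher and 4 lower in stimulated than in resting Naïve WT cells (median −0.41 beside 0.01 for all probes), 1 higher and 5 lower in resting Th2 than in resting Naïve WT cells (−0.87 beside 0.03), and 2 higher and 1 lower in stimulated than in resting Th2 WT cells (−0.02 beside −0.00). Of all probes 43.6%, 34.4% and 27.3% were called in these comparisons. In stimulated against resting Th2 WT cells Cd200, a ligand-like glycoprotein gene, was higher by 2.79, the receptor gene Lilrb4 (now Lilrb4a) by 2.74, and the adhesion receptor gene Pecam1 lower by 0.97. BAF180-deficient cells gave 1 and 3 (median −0.40), 1 and 4 (−0.72), and 2 and 1 (0.08), beside 41.6%, 34.7% and 25.8% of all probes called. By genotype only Klrg1, a cadherin receptor gene, was called. It was higher by 1.14 in resting Naïve BAF180-deficient cells (adjusted p = 0.280), where 0.681% of all probes were called.

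Of 8 costimulatory receptor genes, the counterparts of the members, 2 were higher and 4 lower in stimulated than in resting Naïve WT cells (median −0.57 beside 0.01 for all probes), 2 higher and 2 lower in resting Th2 than in resting Naïve WT cells (0.51 beside 0.03), and 2 higher and 2 lower in stimulated than in resting Th2 WT cells (−0.29 beside −0.00), where 43.6%, 34.4% and 27.3% of all probes were called. The receptors OX40 (Tnfrsf4) and 4-1BB (Tnfrsf9) were higher in stimulated than in resting Th2 WT cells by 2.26 and 2.04, and Tnfrsf18 (GITR) and Cd226 (DNAM-1) lower by 1.04 and 1.03. BAF180-deficient cells gave 1 higher and 2 lower (median −0.38), 2 and 2 (0.59), and 2 and 2 (0.17), beside 41.6%, 34.7% and 25.8% of all probes called. None was called by genotype in any state.

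B cell markers, which bear on Btla because B cells carry it, had mean sums of 584 and 649 in resting Naïve WT and BAF180-deficient cells, 214 and 216 in stimulated Naïve, 150 and 215 in resting Th2, and 61.8 and 106 in stimulated Th2 cells. Array C was highest in the resting Naïve and Th2 groups of both genotypes and raised their means. Resting Th2 arrays read 74.9, 33.3 and 341 in WT and 97.3, 72.0 and 477 in BAF180-deficient cells. With stimulation of Naïve cells and of Th2 cells the mean B cell sum was lower and Btla higher. From resting Naïve to resting Th2 cells the mean B cell sum and Btla were both lower. Memory markers summed to 352, 302 and 348 in resting Naïve WT cells, where the called Cd160 difference also lay. They summed to 576, 508 and 397 in resting Naïve BAF180-deficient cells, without overlap (7.99% of all probes did not overlap there). All 5 had a higher mean in the BAF180-deficient cells (median difference 0.12), and S100a6, a calcium-binding protein gene, was called (1.09, adjusted p = 0.263). The part of B cells and memory cells in the results was not tested.

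Promoter windows of 300 bases, from 250 before to 50 after a transcript start, were read for 6 of the 7 members; Lag3 had no entry under its name. The windows of Havcr2, Btla and Cd160 are shown because these members rose with stimulation of Th2 cells in both genotypes, with motif matches in capitals. Havcr2 held 1 AP-1 motif (TGATTCA at −200), a motif found in 7.81% of 32851 windows. Btla held 2 T-box motifs (TCACAC at −136, GTGTGA at −61) and Cd160 held 1 in each of its 2 windows (at −186 and −188), a motif found in 14.5% of windows. The NFAT core GGAAA, found in 61.3% of windows, was in the second Cd160 window (at −145) and in those of Ctla4, Pdcd1 and Cd5. A motif match is a description of the sequence and was not tested for binding. Coordinates are GRCm38.p6.

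Havcr2 promoter chr11:46454681-46454980 plus strand: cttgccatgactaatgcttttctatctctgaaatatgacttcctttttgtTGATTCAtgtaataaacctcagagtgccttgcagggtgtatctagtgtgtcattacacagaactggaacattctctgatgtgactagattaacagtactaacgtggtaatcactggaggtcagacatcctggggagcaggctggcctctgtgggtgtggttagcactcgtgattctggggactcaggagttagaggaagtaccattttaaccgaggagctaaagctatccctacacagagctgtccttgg

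Btla promoter chr16:45224087-45224386 plus strand: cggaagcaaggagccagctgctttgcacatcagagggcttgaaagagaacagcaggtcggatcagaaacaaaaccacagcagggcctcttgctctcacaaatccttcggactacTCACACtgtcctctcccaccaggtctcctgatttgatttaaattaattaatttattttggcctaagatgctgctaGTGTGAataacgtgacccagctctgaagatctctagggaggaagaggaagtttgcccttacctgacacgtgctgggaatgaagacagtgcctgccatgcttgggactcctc

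Cd160 promoter window 1 chr3:96829302-96829601 minus strand: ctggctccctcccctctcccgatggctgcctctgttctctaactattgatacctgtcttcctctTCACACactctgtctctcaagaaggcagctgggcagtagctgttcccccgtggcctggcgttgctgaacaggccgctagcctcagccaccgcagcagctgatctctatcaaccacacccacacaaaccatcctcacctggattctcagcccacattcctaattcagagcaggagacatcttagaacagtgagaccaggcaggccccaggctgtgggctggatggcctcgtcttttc

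Cd160 promoter window 2 chr3:96814472-96814771 minus strand: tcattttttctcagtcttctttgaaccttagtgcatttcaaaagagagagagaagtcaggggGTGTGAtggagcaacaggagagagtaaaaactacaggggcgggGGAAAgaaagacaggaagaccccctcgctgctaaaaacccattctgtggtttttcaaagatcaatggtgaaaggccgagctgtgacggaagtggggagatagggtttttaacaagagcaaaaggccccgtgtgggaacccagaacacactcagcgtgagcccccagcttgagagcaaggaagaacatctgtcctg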

How the data were processed

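The authors hybridized RNA of CD4 cells to Illumina MouseRef-8 arrays. The deposited non-normalized table holds, per array, an intensity for each probe, summarized over beads by the authors (GenomeStudio 1.6.0 per the labels), and a deposited detection p-value; its scale was checked from the values. With R 4.3.3 and limma 3.58.1 the background was estimated from the detection p-values (neqc, offset 16) and the values were quantile normalized and put on a log2 scale. The fit kept probes whose detection p-value was no higher than 0.02 on 1 or more arrays (14246 of 25697, for 10418 genes), a median of 9485.5 detected probes per array. Symbols were brought to current names by accession (7420 probes), Entrez ID (16938), synonym (553) or symbol (465); for 321 the deposited symbol was used. A gene's value was that of its probe with the highest mean; both Havcr2 probes are given.

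A fit of 8 group means (lmFit, eBayes; 16 residual degrees of freedom, 20.3 after moderation) gave genotype differences in 4 states, state differences in each genotype, and interactions, with Benjamini-Hochberg adjustment over all kept probes. With 3 arrays against 3 the smallest 2-sided exact permutation p is 0.1, so limma was used. The Z-ratio is a log2 difference over the SD of the differences of all kept probes; the methods take it from Z-scores. The fit was tested on simulated data. Python 3.11.15 with matplotlib 3.10.9 drew the figures and read the promoters.

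Replicate arrays correlated at 0.949 to 0.989 and shared at most 0.973% equal intensities. Deviations from the group mean correlated between WT and BAF180-deficient arrays of the same letter (A 0.301, B 0.136, C 0.516), so letters were read as pairs (the study names 3 pairs of mice); within a single state 2 of 12 correlations were at or below 0.1. With letter as a block Cd160 differed between genotypes in resting Naïve cells by −0.74 (adjusted p = 0.160). That block fits the same letter effect in every group and is not a test of the pairs within a state.

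The members and lists were chosen with earlier results of these data known. All 7 members are reported in full. Of each list (ligands, inhibitory signalling, transcription factors, other inhibitory receptors, costimulatory counterparts, and markers of CD4 T cells, Th2, naive, memory and regulatory T cells, B cells, myeloid cells, CD8 T cells and NK cells) at most the 4 called genes with the largest difference in a comparison are named. Genes of like pattern are the 3 with the highest correlation. Cd72, Tox, Tigit, Vsir, Cd101 and Lrrc32 were not found on the array, and Fgl1, Hmgb1, Ubash3b, Nr4a1, Lair1, Cd200r1, Klra1, Pax5, Itgam, Itgax, Fcgr1, Cd8a and Ncr1 were not detected. Alternatives were other background and normalization settings, filters, replicate blocks, variance moderation, call rules, probe averages and leaving out arrays.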

Additional observations from a re-analysis of the deposited data

How the results depend on the processing

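With other processing 386 of 412 values of called state differences kept their call and 26 lost it; with 1 array left out 208 of 228 kept it. No called difference changed direction, and 7 differences that were not called did so in alternatives other than leaving out arrays. With 1 array left out, 19 values of genotype differences, 30 of interactions and 14 of state differences that were not called changed direction. The count of members called between genotypes in resting Naïve cells went from 1 to 0 with Z-score normalization, with only the arrays of the groups compared, and with adjusted p < 0.05 as the rule, and ran from 0 to 1 with 1 array left out. The Cd160 difference was then −0.57 with Z-scores (adjusted p = 0.659). With the 4 criteria in place of adjusted p < 0.05, members called with stimulation of Naïve cells went from 3 to 1 in WT and from 3 to 1 in BAF180-deficient cells (Btla and Cd160 lost in each).

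With 1 array left out, members called ran from 2 to 4 for stimulated Th2 against stimulated Naïve WT cells, 2 to 4 for resting Th2 against resting Naïve BAF180-deficient cells, 2 to 3 for that comparison in WT cells, 3 to 4 with stimulation of Naïve cells in each genotype, and 4 to 5 with stimulation of Th2 cells in each genotype. The replicate block changed no call of a member. The cause of the results that changed was not tested.

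The signal over background limits what can be read for Pdcd1, for Havcr2 outside stimulated Th2 cells and for Cd160 in resting Th2 cells. The fit of group means, with 3 arrays per group and no pairing, has little reach for small differences in Ctla4, Lag3 and Havcr2. A slide block was not run because the headers name no slide. RNA levels do not give surface protein, and regulatory, myeloid, NK and CD8 cells were not counted in these samples.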
